A study of Mus musculus with 16 samples.

Results

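The genes described here encode enzymes of cholesterol synthesis, regulators of the sterol response, 3 carriers of sterol, and enzymes of fatty acid synthesis. They are 32 of the 27179 genes counted in neural stem and progenitor cells with and without the histone lysine acetyltransferase KAT7 (HBO1). They were taken by name, after the Entrez identifiers in the count files had been matched to symbols, and were ordered by pathway step: 7 in the mevalonate steps, 3 that make squalene and lanosterol, 8 after lanosterol, 5 in SREBP regulation, 3 in sterol transport and 6 in fatty acid synthesis. All 32 passed the filter on low counts, so none was left out of a test. The cells were grown as neurospheres from cortex and ganglionic eminence of mouse foetuses at E14.5. Null cells were Kat7 lox/lox NesCre T/+ and intact cells were Kat7 +/+ NesCre T/+, so the Cre transgene, whose name refers to Nestin, was carried by both genotypes. Each genotype was sampled with 4 libraries while proliferating, at 3 days after passage 3, and with 4 libraries after differentiating for 3 days, on a laminin substrate and in medium made for cortical neurons. The 4 libraries of a group came from isolates of 4 foetuses. No source used here says whether equally numbered libraries of both stages came from 1 foetus.

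Cells build cholesterol from acetyl-CoA through mevalonate, the isoprenoid farnesyl diphosphate, squalene and lanosterol, by a route of many enzymes. When sterol in the endoplasmic reticulum is low, SCAP escorts SREBP transcription factors to the Golgi, where they are cleaved and released to activate these genes. INSIG proteins hold SCAP back when sterol is plentiful, and oxysterols act through LXR receptors on export genes such as Abca1. The brain makes its own cholesterol, since lipoproteins of the blood do not cross the blood-brain barrier. In this tissue oligodendrocytes use it for myelin and astrocytes pass it to other cells on particles that carry APOE.

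SREBPs act on promoters together with NF-Y, a factor that binds the CCAAT box, so the promoters of members were searched for that box and for the sterol regulatory element core. Windows of 250 bases before to 50 bases after each transcription start were taken from RefSeq (GRCm38.p6), which held 36 promoters of 26 members. The letters searched, on both strands, were CCAAT and TCACNCCAC, and no match of one overlaps a match of the other in the stretches printed here. A gene was counted when any of its promoters held the letters, which favours genes with more promoters. CCAAT stood in 20 of the 26 members (76.9%), against 41.1% of the 27025 genes in the table. Counted by promoter, it stood in 21 of the 36 of members, against 37.4% of all 32851. TCACNCCAC stood in 1 of the 26 members, Hmgcs1 (3.85%), against 1.44% of all genes. By promoter it stood in 1 of the 36 of members, against 1.24% of all. Of the 20 members with CCAAT, 15 were lower in null than in intact differentiating cells, 2 were higher and 3 were not called. Of the 6 without it, 2 were lower, 3 were higher and 1 was not called. Over all genes tested, 24.3% were called higher and 22.0% lower in that comparison. All of the 15 but Srebf2 were cholesterol enzymes, and of the 6 only Acat2 was. Box and pathway step therefore cannot be told apart here. Calls among all genes with the box were not counted. Stretches before the start are printed for 7 enzymes that were lower in null differentiating cells, for Fasn, which was higher, and for Insig1, which was not called. They are in the direction of transcription, 5′ to 3′, with the motifs in capitals, and are cut from about 10 bases before the first motif to 10 after the last. The windows are chr13:119690104-119690320 (plus strand, Hmgcs1), chr13:8885551-8885605 (plus strand, Idi1), chr8:122443435-122443492 (minus strand, Mvd), chr5:4104712-4104736 (minus strand, Cyp51), chr1:169969206-169969380 (minus strand, Hsd17b7), chr9:42264310-42264334 (minus strand, Sc5d), chr7:143830119-143830179 (plus strand, Dhcr7), chr11:120824592-120824647 (minus strand, Fasn) and chr5:28071186-28071210 (plus strand, Insig1).
Hmgcs1: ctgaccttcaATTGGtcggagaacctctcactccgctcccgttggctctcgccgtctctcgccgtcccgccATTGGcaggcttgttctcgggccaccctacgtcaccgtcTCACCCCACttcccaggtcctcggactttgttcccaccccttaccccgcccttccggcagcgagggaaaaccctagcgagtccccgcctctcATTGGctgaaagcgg
Idi1: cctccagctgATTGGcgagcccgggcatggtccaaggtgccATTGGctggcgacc
Mvd: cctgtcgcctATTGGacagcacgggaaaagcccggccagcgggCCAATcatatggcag
Cyp51: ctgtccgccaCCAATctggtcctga
Hsd17b7: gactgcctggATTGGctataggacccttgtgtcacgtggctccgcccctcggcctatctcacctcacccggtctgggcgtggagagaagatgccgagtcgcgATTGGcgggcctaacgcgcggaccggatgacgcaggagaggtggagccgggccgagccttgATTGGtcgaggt
Sc5d: ccggctgctgATTGGccggctgcct
Dhcr7: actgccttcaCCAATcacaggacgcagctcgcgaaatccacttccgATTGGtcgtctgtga
Fasn: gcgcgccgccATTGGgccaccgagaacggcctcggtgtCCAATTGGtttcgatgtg
Insig1: ccctcctcccATTGGctccggcggc
Hmgcs1 holds the sterol element core between CCAAT boxes that read on the opposite strand, and Hsd17b7 holds 3 boxes on that strand. In Fasn the last box on the forward strand overlaps a box on the other strand (CCAATTGG). A match is a description of the letters and not a measured binding site.

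Polyadenylated RNA was sequenced as 75-base paired-end reads. Libraries held 16.8 to 47.9 M counts, of which the 32 genes took 1.38 to 2.05%. Kat7 was at 139 ± 5.59 and 103 ± 3.08 CPM (counts per M counts after TMM scaling of the libraries, mean ± SD, n = 4) in intact proliferating and differentiating cells, and had 8 and 1 counts in all in the null libraries of these stages. The summed level of 8 stem and progenitor cell markers was 6284 to 7011 CPM in the proliferating groups together, 3738 to 4879 CPM in null and 2545 to 3321 CPM in intact differentiating cells. Levels of 10 astrocyte markers were 1325 to 2045 CPM in intact and 2570 to 3844 CPM in null proliferating cells, then 1964 to 3083 CPM in intact and 5700 to 9085 CPM in null differentiating cells. The 14 oligodendrocyte lineage markers summed to 3103 to 3729 CPM in intact and 1879 to 2385 CPM in null proliferating cells, and to 5041 to 10621 CPM in intact and 2614 to 2978 CPM in null differentiating cells. The 10 neuron markers summed to 1278 to 1501 CPM in intact and 1381 to 1644 CPM in null proliferating cells, and to 2260 to 6361 CPM in intact and 2368 to 2777 CPM in null differentiating cells. Those of microglia never passed 0.70 CPM, with the defining marker Aif1 at 0 in 3 of the 4 groups. Intact proliferating replicate 1, its differentiating counterpart by number and null proliferating replicate 4 stood apart from their groups. Several results that rest on them are given with and without them.

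Of the 18 cholesterol enzymes, 17 were lower in null than in intact cells under differentiation, from Acat2 at the start of the route to Dhcr7 at its end, and the other, Sqle, had a value below 0 that did not pass the test. In proliferating cells the same 18 were split, with Sqle, Tm7sf2 and Sc5d higher, Lss lower and 14 not called. The sterol carriers Apoe and Abca1 were far higher in null differentiating cells, and Fasn, Srebf1 and Scap were higher as well. Of the 32 genes, 5 were higher and 19 lower in null differentiating cells, where 24.3% of all 15177 genes tested were called higher and 22.0% lower (edgeR quasi-likelihood test, Benjamini-Hochberg adjusted p under 0.05). In proliferating cells 7 were higher and 2 lower, against 19.0% and 19.7% of all genes. The median log2 fold change of the 18 enzymes was -0.51 in differentiating and -0.11 in proliferating cells, while the median over all genes was 0.04 and -0.01. These are bulk libraries, in which fewer cells of a type and less RNA per cell cannot be told apart. The summed oligodendrocyte lineage markers were also lower in every null differentiating library (2614 to 2978 CPM) than in every intact one (5041 to 10621 CPM), and the astrocyte markers higher (5700 to 9085 against 1964 to 3083 CPM). Of the 14 oligodendrocyte lineage markers 11 were called lower in null differentiating cells, of the 10 astrocyte markers 7 were called higher, and of the 10 neuron markers 6 were called lower and 1 higher (median log2 fold change -1.41). The neuron markers differed among themselves. Stmn2, with the lowest fold change of the 10, was at 0.31 to 0.85 CPM in null and 41.7 to 736 CPM in intact differentiating libraries. Map2 was higher in null libraries there, at 1451 to 1747 against 1264 to 1284 CPM. Tubb3 overlapped, at 263 to 346 CPM in null and 162 to 1138 CPM in intact libraries. The part of these marker differences in the enzyme values was not tested. With scaling by library size alone, calls over all genes were 2677 higher and 4123 lower in differentiating cells, in place of 3691 and 3345, and 2234 and 3847 in proliferating cells, in place of 2879 and 2985. In differentiating cells 17 of the 18 enzymes were called lower with that scaling, and 17 without the 3 libraries that stood apart.

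**Figure D1:**
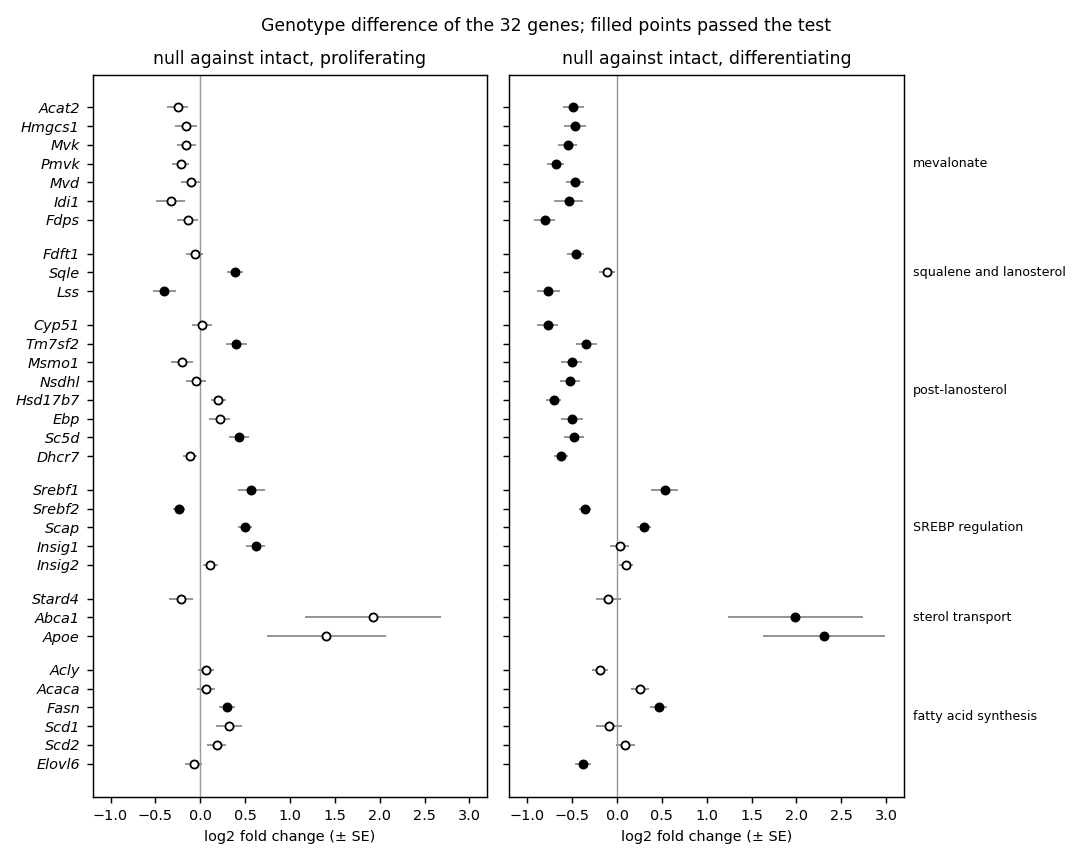
Log2 fold change of null against intact cells (x axis, ± SE) for the 32 genes in rows, grouped by pathway step, in proliferating (left) and differentiating cells (right). Filled points passed the test over all genes; in differentiating cells the 18 enzymes of the upper 3 groups lie left of 0, between -0.81 and -0.11.

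The 7 listed genes of the mevalonate steps, from acetyl-CoA to farnesyl diphosphate, were all lower in null differentiating cells (median log2 fold change -0.54). None of the 7 was called in proliferating cells, although all 7 values lay below 0 (-0.33 to -0.11). Fdps, the synthase of farnesyl diphosphate (Entrez 110196; chromosome 3, 89093588 to 89101967), was at 148, 189, 177 and 183 CPM in intact and 157, 168, 169 and 138 CPM in null proliferating libraries. After differentiation Fdps stood at 118, 104, 78.1 and 107 CPM in intact and 58.0, 50.4, 61.4 and 62.8 CPM in null libraries. Null and intact libraries overlapped while proliferating, and every null library lay below every intact one after differentiation. The difference in differentiating cells, given here and for the other genes ± SE, was a log2 fold change of -0.81 ± 0.12 (edgeR adjusted p = 6.3e-05), against a log2 fold change of -0.14 ± 0.12 (edgeR adjusted p = 0.367) in proliferating cells. Pmvk, phosphomevalonate kinase (Entrez 68603; chromosome 3, 89454541 to 89469014), was at 66.4, 88.1, 86.9 and 74.5 CPM in intact and 65.4, 68.5, 70.6 and 67.3 CPM in null proliferating libraries. After differentiation Pmvk stood at 64.6, 59.2, 50.3 and 63.8 CPM in intact and 36.4, 33.6, 37.4 and 40.6 CPM in null libraries. All null libraries were below all intact ones under differentiation, whereas the proliferating groups overlapped. Its difference was a log2 fold change of -0.68 ± 0.10 (edgeR adjusted p = 4.8e-05) in differentiating cells and -0.22 ± 0.10 (edgeR adjusted p = 0.0883) in proliferating cells.

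Mvk, mevalonate kinase (Entrez 17855; chromosome 5, 114444264 to 114460591), was at 73.1, 71.9, 70.2 and 67.5 CPM in intact and 63.7, 70.4, 70.8 and 49.1 CPM in null proliferating libraries. After differentiation Mvk stood at 48.9, 55.3, 48.9 and 63.5 CPM in intact and 38.0, 34.1, 37.4 and 38.3 CPM in null libraries. The proliferating groups overlapped, and the differentiating groups did not, with the null libraries below. In differentiating cells the difference was a log2 fold change of -0.55 ± 0.11 (edgeR adjusted p = 7.0e-04). Idi1, the isomerase that makes the reactive isoprene unit (Entrez 319554; chromosome 13, 8885606 to 8892396), was at 223, 315, 321 and 298 CPM in intact and 224, 258, 252 and 186 CPM in null proliferating libraries. After differentiation Idi1 stood at 129, 176, 118 and 193 CPM in intact and 105, 88.8, 116 and 113 CPM in null libraries. Null and intact libraries overlapped while proliferating, and every null library lay below every intact one after differentiation. Its difference in differentiating cells was a log2 fold change of -0.54 ± 0.16 (edgeR adjusted p = 0.0133). The other members of these steps were lower by similar amounts in null differentiating cells: -0.49 ± 0.12 for Acat2, the cytosolic acetoacetyl-CoA thiolase, -0.46 ± 0.12 for Hmgcs1, the HMG-CoA synthase whose promoter holds the sterol element core, and -0.47 ± 0.10 for the decarboxylase Mvd (log2 fold changes ± SE; edgeR adjusted p = 0.00332, 0.00669 and 0.00185). For Hmgcs1 the libraries overlapped, since intact replicate 3, at 1407 CPM, lay within the null range of 1121 to 1464 CPM. Without intact proliferating replicate 1, 3 mevalonate genes passed the test as lower in null proliferating cells too, Acat2, Pmvk and Idi1 (edgeR adjusted p = 0.0315, 0.0191 and 0.0413). Acat2 and Pmvk also passed with library size scaling (edgeR adjusted p = 0.0275 and 0.0161). Reads of Acat2 and its close relative Acat3 may be divided between them by the counting.

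Squalene is made by Fdft1, epoxidised by Sqle and closed to lanosterol by Lss, and the genes of this segment behaved differently from each other. Sqle, squalene epoxidase and a rate-limiting enzyme of the route (Entrez 20775; chromosome 15, 59315092 to 59331193), was at 359, 398, 394 and 385 CPM in intact and 480.0, 546, 534 and 452 CPM in null proliferating libraries. After differentiation Sqle stood at 346, 335, 259 and 330.3 CPM in intact and 301, 273, 302 and 303 CPM in null libraries. Every null library lay above every intact one while proliferating, and the differentiating groups overlapped. It was higher in null proliferating cells (0.39 ± 0.09 on the log2 scale, edgeR adjusted p = 0.00277). Under differentiation it was the only enzyme of the 18 that did not pass the test (log2 fold change -0.11 ± 0.09, 95% interval -0.30 to 0.08, edgeR adjusted p = 0.340). Without intact differentiating replicate 3, the lowest of its group, Sqle passed as lower (edgeR adjusted p = 0.048). Lss, lanosterol synthase (Entrez 16987; chromosome 10, 76531565 to 76557139), was at 187, 235, 228 and 222 CPM in intact and 177, 176, 172 and 136 CPM in null proliferating libraries. After differentiation Lss stood at 169, 197, 136 and 210.4 CPM in intact and 109, 89.3, 112 and 109 CPM in null libraries. At each stage all null libraries lay below all intact ones. Lss was lower in null cells at both stages, with -0.40 ± 0.13 when proliferating (edgeR adjusted p = 0.0226) and -0.76 ± 0.13 when differentiating (edgeR adjusted p = 2.2e-04), as log2 fold changes. The call in proliferating cells was lost without null replicate 4, intact replicate 2 or intact replicate 3 (edgeR adjusted p = 0.0563 to 0.0743).

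Fdft1, squalene synthase (Entrez 14137; chromosome 14, 63145150 to 63181687), was at 183, 197, 198 and 183 CPM in intact and 193, 185, 187 and 164 CPM in null proliferating libraries. After differentiation Fdft1 stood at 191, 209.5, 163 and 212 CPM in intact and 139, 119, 156 and 151 CPM in null libraries. All null libraries were below all intact ones under differentiation, whereas the proliferating groups overlapped. Its difference was a log2 fold change of -0.46 ± 0.09 (edgeR adjusted p = 0.001) in differentiating cells and -0.06 ± 0.09 (edgeR adjusted p = 0.628) in proliferating cells. In the GENCODE vM21 annotation 18.3% of the exonic bases of Fdft1 overlap Ctsb on the opposite strand and 26.7% of those of Fdps overlap the predicted gene Gm43738 on the same strand. No source used here says whether counting used strand, and reads in the shared bases cannot be told apart here. The deposited models are shorter, at 2863 bases for Fdft1 and 1461 for Fdps. That annotation has 4227 and 4208 exonic bases, so its shares of overlap need not hold for the counted models. Smaller overlaps, of 9.22 to 13.2% of exonic bases, affect Hmgcs1, Scap, Tm7sf2 and Idi1.

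The 8 listed genes of the steps from lanosterol to cholesterol were all lower in null differentiating cells (median log2 fold change -0.51). Tm7sf2 and Sc5d among them were higher in null proliferating cells. Lbr, a gene of sterol modification kept on another list, overlapped between the genotypes under differentiation. Its levels there were 31.7, 33.4, 31.1 and 35.2 CPM in intact and 36.2, 28.2, 31.6 and 34.2 CPM in null libraries. Dhcr7, the reductase that forms cholesterol in the last step (Entrez 13360; chromosome 7, 143823167 to 143848410), was at 259, 283, 295 and 299 CPM in intact and 260.3, 276, 263 and 252 CPM in null proliferating libraries. After differentiation Dhcr7 stood at 141, 153, 123 and 161 CPM in intact and 96.9, 88.3, 92.0 and 97.6 CPM in null libraries. The proliferating groups overlapped, and the differentiating groups did not, with the null libraries below. The difference was a log2 fold change of -0.62 ± 0.08 (edgeR adjusted p = 1.5e-05) in differentiating cells, and in proliferating cells -0.11 ± 0.08 (95% interval -0.28 to 0.06, edgeR adjusted p = 0.268). Hsd17b7, a ketoreductase that acts on sterols during demethylation (Entrez 15490; chromosome 1, 169949535 to 169969242), was at 47.7, 53.4, 57.2 and 55.1 CPM in intact and 62.2, 59.1, 65.6 and 58.8 CPM in null proliferating libraries. After differentiation Hsd17b7 stood at 48.0, 45.6, 38.8 and 46.8 CPM in intact and 28.1, 24.3, 28.9 and 28.5 CPM in null libraries. Every null library lay above every intact one while proliferating and below every intact one after differentiation. It had the smallest adjusted p of the 32 genes between null and intact differentiating cells (-0.71 ± 0.08 on the log2 scale, edgeR adjusted p = 8.1e-06). In proliferating cells its value lay on the other side of 0 and did not pass (0.20 ± 0.08 on the log2 scale, edgeR adjusted p = 0.0591). It passed there as higher in null cells with a minimum count of 50 and without null differentiating replicate 2, intact differentiating replicate 1 or intact differentiating replicate 3 (edgeR adjusted p = 0.0438, 0.0473, 0.0481 and 0.0402).

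Ebp, the sterol isomerase (Entrez 13595; chromosome X, 8185329 to 8193512), was at 20.5, 22.0, 20.7 and 23.2 CPM in intact and 22.8, 28.1, 27.2 and 22.5 CPM in null proliferating libraries. After differentiation Ebp stood at 8.93, 9.01, 8.82 and 12.3 CPM in intact and 6.66, 6.83, 6.56 and 7.65 CPM in null libraries. Null and intact libraries overlapped while proliferating, and every null library lay below every intact one after differentiation. Its difference was a log2 fold change of -0.50 ± 0.12 (edgeR adjusted p = 0.00339) in differentiating cells. Nsdhl, a dehydrogenase that removes methyl groups from sterols (Entrez 18194; chromosome X, 72918521 to 72958528), was at 156, 211, 199.8 and 201 CPM in intact and 186, 193, 195 and 169 CPM in null proliferating libraries. After differentiation Nsdhl stood at 114, 122, 91.9 and 126 CPM in intact and 79.3, 67.2, 84.7 and 84.9 CPM in null libraries. All null libraries were below all intact ones under differentiation, whereas the proliferating groups overlapped. Its difference was a log2 fold change of -0.52 ± 0.11 (edgeR adjusted p = 0.00139) in differentiating cells. Cyp51, the lanosterol demethylase, and Msmo1, a methyl sterol oxidase, were also lower there (-0.77 ± 0.11 and -0.51 ± 0.12 on the log2 scale, edgeR adjusted p = 6.2e-05 and 0.00312) and were not called in proliferating cells (0.02 ± 0.11 and -0.20 ± 0.12).

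Sc5d and Tm7sf2 were the members of these steps that passed the test as higher in null proliferating cells. Sc5d, the lathosterol desaturase (Entrez 235293; chromosome 9, 42251592 to 42264300), was at 114, 107, 108 and 100.2 CPM in intact and 146, 158, 156 and 119 CPM in null proliferating libraries. After differentiation Sc5d stood at 121, 128, 91.6 and 130.2 CPM in intact and 79.7, 77.7, 93.6 and 88.1 CPM in null libraries. The null libraries were all above the intact ones in the proliferating groups only, with overlap after differentiation. It was higher in null cells while proliferating (0.43 ± 0.11 on the log2 scale, edgeR adjusted p = 0.00642) and lower while differentiating (-0.47 ± 0.11 on the log2 scale, edgeR adjusted p = 0.0027). Tm7sf2, a sterol reductase (Entrez 73166; chromosome 19, 6062821 to 6067850), was at 54.3, 49.5, 49.4 and 46.1 CPM in intact and 57.9, 73.1, 72.6 and 60.0 CPM in null proliferating libraries. After differentiation Tm7sf2 stood at 39.9, 52.2, 39.8 and 54.3 CPM in intact and 41.0, 34.5, 35.7 and 35.9 CPM in null libraries. Every null library lay above every intact one while proliferating, and the differentiating groups overlapped. Its values were a log2 fold change of 0.40 ± 0.11 (edgeR adjusted p = 0.0109) when proliferating and a log2 fold change of -0.34 ± 0.11 (edgeR adjusted p = 0.0227) when differentiating. The second of these calls was lost when any 1 of 5 differentiating libraries was left out, null replicates 2, 3 and 4 and intact replicates 2 and 4 (edgeR adjusted p = 0.0559 to 0.0796).

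**Figure D2:**
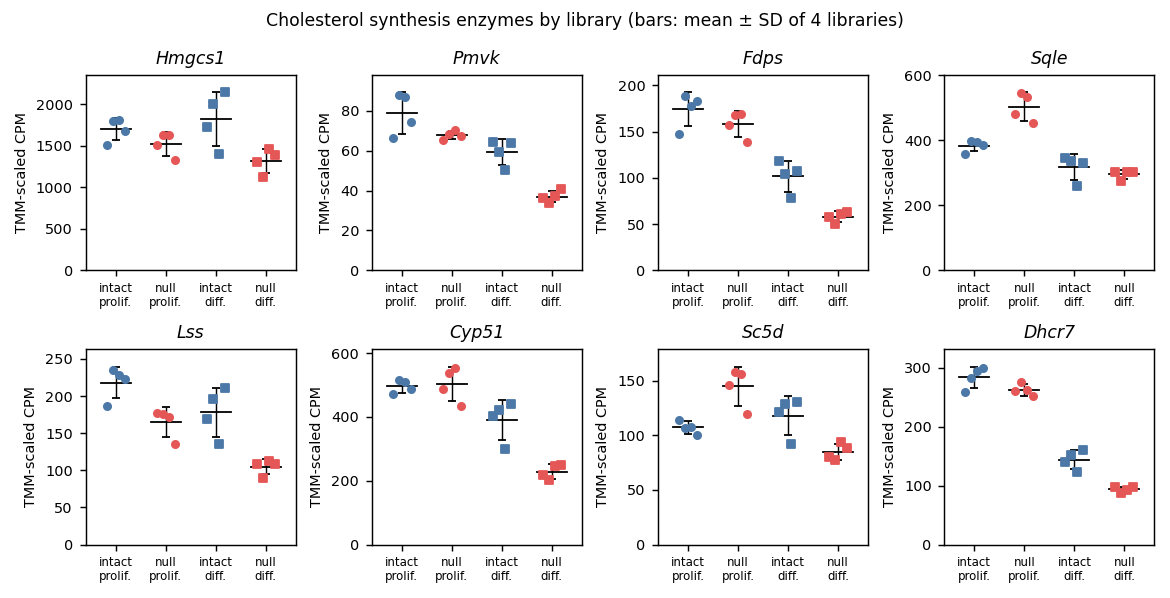
Level of 8 cholesterol enzymes (y axis, TMM-scaled CPM, from 0) in each of the 16 libraries, with the mean ± SD of the 4 libraries of a group. The null differentiating libraries are the lowest group of Pmvk, Fdps, Lss, Cyp51 and Dhcr7, while Sc5d and Sqle are highest in null proliferating libraries.

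The enzymes also differed in level among themselves. Per kilobase of gene model, the 18 enzymes summed to 1901 ± 146 CPM in intact proliferating, 1799 ± 168 in null proliferating, 1568 ± 236 in intact differentiating and 1113 ± 95.3 in null differentiating cells (mean ± SD, n = 4). By library the sums were 1542, 1693, 1248 and 1789 CPM per kilobase in intact and 1114, 979, 1195 and 1163 in null differentiating cells, so the groups did not overlap, and intact replicate 3 came nearest to the null libraries. The mevalonate steps summed to 900 ± 143 and 633 ± 60.3 CPM per kilobase in intact and null differentiating cells, the squalene and lanosterol steps to 241 ± 31.0 and 190.3 ± 14.0, and the steps after lanosterol to 427 ± 63.3 and 289 ± 21.5. Hmgcs1 alone made up 27.3% of the summed level in intact proliferating cells, 25.8% in null proliferating, 35.2% in intact differentiating and 36.0% in null differentiating cells.

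The 5 listed regulators of the sterol response were split between higher and lower. Srebf1, Scap and Insig1 were higher and Srebf2 lower in null proliferating cells. In differentiating cells Srebf1 and Scap were higher and Srebf2 lower, while Insig1 and Insig2 were not called. Srebf2, which encodes the SREBP that acts mainly on cholesterol genes (Entrez 20788; chromosome 15, 82147269 to 82205379), was at 448, 481, 474 and 493 CPM in intact and 389, 411, 402 and 403 CPM in null proliferating libraries. After differentiation Srebf2 stood at 451, 391, 375 and 389 CPM in intact and 329, 288, 313 and 327 CPM in null libraries. The genotypes did not overlap at either stage, with the null libraries below. The difference was a log2 fold change of -0.24 ± 0.07 (edgeR adjusted p = 0.00991) when proliferating and a log2 fold change of -0.35 ± 0.07 (edgeR adjusted p = 4.8e-04) when differentiating. Srebf1, whose main product acts on fatty acid genes (Entrez 20787; chromosome 11, 60199084 to 60224186), was at 306, 229.7, 232 and 271 CPM in intact and 367, 409, 406 and 360.2 CPM in null proliferating libraries. After differentiation Srebf1 stood at 180.2, 222, 277 and 227 CPM in intact and 302, 254, 336 and 418 CPM in null libraries. The null libraries were all above the intact ones in the proliferating groups only, with overlap after differentiation. It was higher in null cells at both stages (0.57 ± 0.15 on the log2 scale, edgeR adjusted p = 0.00721 and 0.53 ± 0.15 with edgeR adjusted p = 0.0086). The second call was lost when the 8 differentiating libraries were fitted alone (0.48, edgeR adjusted p = 0.0571).

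Scap, the escort of SREBPs (Entrez 235623; chromosome 9, 110333288 to 110384949), was at 124, 128, 123 and 133 CPM in intact and 172, 168, 163 and 216 CPM in null proliferating libraries. After differentiation Scap stood at 129.8, 113, 123 and 117 CPM in intact and 146, 150.5, 147 and 152 CPM in null libraries. At each stage all null libraries lay above all intact ones. The differences were a log2 fold change of 0.50 ± 0.08 (edgeR adjusted p = 1.5e-04) when proliferating and a log2 fold change of 0.30 ± 0.08 (edgeR adjusted p = 0.00486) when differentiating. Insig1, which holds SCAP in the endoplasmic reticulum and is itself an SREBP target (Entrez 231070; chromosome 5, 28071412 to 28078662), was at 357, 387, 393 and 402 CPM in intact and 552, 611, 634 and 563 CPM in null proliferating libraries. After differentiation Insig1 stood at 244, 261, 202 and 279 CPM in intact and 272, 208, 247 and 278 CPM in null libraries. Every null library lay above every intact one while proliferating, and the differentiating groups overlapped. It was higher in null proliferating cells (0.62 ± 0.10 on the log2 scale, edgeR adjusted p = 3.1e-04), and in differentiating cells its difference was 0.03 ± 0.10 (95% interval -0.20 to 0.25, edgeR adjusted p = 0.836). Insig2, the related retention factor, was between 23.3 and 26.2 CPM as a group mean and passed none of the 5 tests, with log2 fold changes of null against intact of 0.11 ± 0.08 (95% interval -0.07 to 0.29) and 0.10 ± 0.08 (-0.07 to 0.28).

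**Figure D3:**
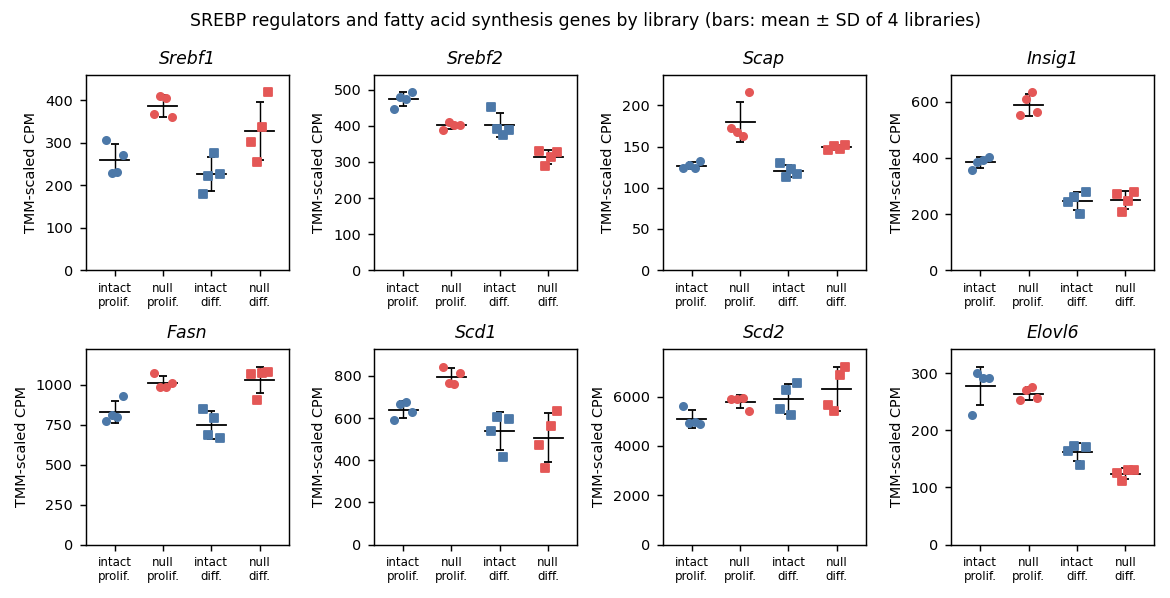
Level of 4 SREBP regulators (upper row) and 4 fatty acid synthesis genes (lower row) in each library (y axis, TMM-scaled CPM, from 0), with the mean ± SD of 4 libraries. Insig1 is highest in null proliferating libraries, and Fasn is higher in null than in intact libraries at both stages.

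The sterol carriers Apoe and Abca1 gave the largest fold changes of the 32 genes. Apoe, the main apolipoprotein of brain (Entrez 11816; chromosome 7, 19696244 to 19701310), was at 225, 41.2, 36.0 and 27.8 CPM in intact and 107, 92.7, 100.3 and 572 CPM in null proliferating libraries. After differentiation Apoe stood at 811, 1027, 1074 and 1202 CPM in intact and 4119, 5321, 5669 and 5253 CPM in null libraries. Null and intact libraries overlapped while proliferating, and every null library lay above every intact one after differentiation. In differentiating cells it was higher in null cells (2.31 ± 0.68 on the log2 scale, edgeR adjusted p = 0.0117), and in proliferating cells the difference did not pass (1.40 ± 0.66 on the log2 scale, edgeR adjusted p = 0.108). Intact proliferating replicate 1 and null proliferating replicate 4 were far above the other libraries of their groups. Their astrocyte marker sums, 2045 and 3844 CPM, were also the highest of their groups, against 1325 to 1457 and 2570 to 2792 CPM in the others, and the part of this in the Apoe level was not tested. Without intact replicate 1 the difference in proliferating cells was 2.64 on the log2 scale (edgeR adjusted p = 0.00211), and without null replicate 4 it was 0.28 (edgeR adjusted p = 0.719). Without both and intact differentiating replicate 1 it was 1.52 (edgeR adjusted p = 2.5e-06).

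Abca1, the transporter that loads cholesterol onto apolipoproteins (Entrez 11303; chromosome 4, 53030789 to 53159988), was at 115, 6.17, 6.40 and 7.74 CPM in intact and 134, 82.0, 84.9 and 216 CPM in null proliferating libraries. After differentiation Abca1 stood at 242, 236, 372 and 233 CPM in intact and 832, 935, 1299.6 and 1225 CPM in null libraries. All null libraries were above all intact ones under differentiation, whereas the proliferating groups overlapped. In proliferating cells the difference did not pass (1.93 ± 0.76 on the log2 scale, edgeR adjusted p = 0.056), but without intact replicate 1 it was 4.25 (edgeR adjusted p = 1.4e-06). In differentiating cells it was a log2 fold change of 1.99 ± 0.75 (edgeR adjusted p = 0.0409), a call that was lost when any of the 8 differentiating libraries was left out (edgeR adjusted p = 0.0520 to 0.0861), with library size scaling (edgeR adjusted p = 0.0551) and with DESeq2 (adjusted p = 0.0531). The spread behind that test is shared with the proliferating libraries. Fitted on the 8 differentiating libraries alone, the difference was 1.93 for Abca1 and 2.25 for Apoe (edgeR adjusted p = 2.6e-04 and 3.3e-05). The astrocyte marker sums of null and intact differentiating cells did not overlap either, and their part in the levels of Apoe and Abca1 was not tested.

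Stard4, which carries cholesterol between membranes within the cell (Entrez 170459; chromosome 18, 33199138 to 33213862), did not share these differences. Proliferating cells had Stard4 at 112, 145, 135 and 132 CPM in intact and 112, 120.2, 125 and 94.9 CPM in null proliferating libraries. After differentiation Stard4 stood at 51.7, 63.7, 43.3 and 65.9 CPM in intact and 53.0, 42.2, 57.6 and 56.9 CPM in null libraries. The null and intact libraries overlapped at both stages. No difference between null and intact cells passed (-0.21 ± 0.14 when proliferating and -0.10 ± 0.14 when differentiating, 95% intervals -0.51 to 0.08 and -0.40 to 0.20, edgeR adjusted p = 0.235 and 0.587).

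**Figure D4:**
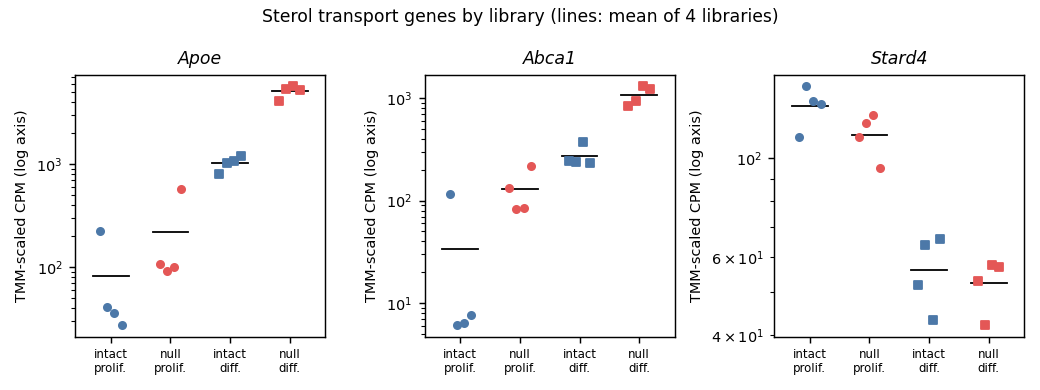
Level of Apoe, Abca1 and Stard4 in each library (y axis, TMM-scaled CPM, log axis), with a line at the mean of the 4 libraries of a group. Intact proliferating replicate 1 lies above its group for Apoe (225 CPM) and Abca1 (115 CPM), and all null differentiating libraries lie above all intact ones for both genes.

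Among the 6 genes of fatty acid synthesis, Fasn was higher in null cells at both stages and Elovl6 lower under differentiation. The other 4 were not called between genotypes. Over all genes 19.0% were higher and 19.7% lower when proliferating, and 24.3% and 22.0% when differentiating. The calls in this step did not exceed those shares. Fasn, the synthase that builds palmitate (Entrez 14104; chromosome 11, 120805958 to 120825166), was at 776, 810.2, 797 and 929 CPM in intact and 1074, 989, 985 and 1014 CPM in null proliferating libraries. After differentiation Fasn stood at 849.8, 685, 793 and 668 CPM in intact and 1067, 908, 1072 and 1082 CPM in null libraries. The genotypes did not overlap at either stage, with the null libraries above. The differences were a log2 fold change of 0.29 ± 0.09 (edgeR adjusted p = 0.0173) and, under differentiation, a log2 fold change of 0.46 ± 0.09 (edgeR adjusted p = 6.7e-04). Elovl6, which lengthens palmitate (Entrez 170439; chromosome 3, 129532386 to 129638495), was at 227, 301, 291 and 291 CPM in intact and 252, 271, 276 and 257 CPM in null proliferating libraries. After differentiation Elovl6 stood at 163, 173, 138 and 171 CPM in intact and 125, 111, 129.7 and 131 CPM in null libraries. The proliferating groups overlapped, and the differentiating groups did not, with the null libraries below. Its difference was a log2 fold change of -0.38 ± 0.09 (edgeR adjusted p = 0.00362) when differentiating and -0.07 ± 0.09 (edgeR adjusted p = 0.562) when proliferating.

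Acly, which makes cytosolic acetyl-CoA from citrate (Entrez 104112; chromosome 11, 100476352 to 100528000), was at 552, 719, 714 and 727 CPM in intact and 699, 754, 741 and 636 CPM in null proliferating libraries. After differentiation Acly stood at 517, 555, 511 and 586 CPM in intact and 487, 442, 471 and 502 CPM in null libraries. Null and intact libraries overlapped while proliferating, and every null library lay below every intact one after differentiation. Neither genotype difference passed (0.06 ± 0.09 and -0.19 ± 0.09, edgeR adjusted p = 0.623 and 0.0968), but the second did, as lower in null cells, with library size scaling, a minimum count of 50 and a fit of the 2 groups alone (edgeR adjusted p = 0.0143, 0.0304 and 0.0207) and with DESeq2 (adjusted p = 0.0271). It also passed without intact proliferating replicate 1, without the pair of intact libraries numbered 1 and without the 3 libraries that stood apart (edgeR adjusted p = 0.0327, 0.0203 and 0.00595). Scd1, a desaturase that makes oleate (Entrez 20249; chromosome 19, 44394450 to 44407709), was at 590.5, 665, 678 and 627 CPM in intact and 844, 765, 762 and 815 CPM in null proliferating libraries. After differentiation Scd1 stood at 537, 605, 415 and 598 CPM in intact and 472, 365, 560.2 and 631 CPM in null libraries. The null libraries were all above the intact ones in the proliferating groups only, with overlap after differentiation. Its genotype differences did not pass (0.32 ± 0.14 and -0.09 ± 0.14, edgeR adjusted p = 0.097 and 0.645). The first passed as higher in null cells when the 8 proliferating libraries were fitted alone (0.31, edgeR adjusted p = 0.00579) and without null differentiating replicate 2 (edgeR adjusted p = 0.0437).

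Acaca, acetyl-CoA carboxylase, was called higher on differentiation in null cells, against 3 genes of its step called lower. The values of the step were 3 above and 3 below 0. Acaca (Entrez 107476; chromosome 11, 84129635 to 84401651) was at 78.6, 84.0, 89.0 and 99.1 CPM in intact and 102, 88.6, 85.5 and 89.9 CPM in null proliferating libraries. After differentiation Acaca stood at 117, 93.7, 96.0 and 86.3 CPM in intact and 118, 101, 129 and 121 CPM in null libraries. At both stages the libraries of the genotypes overlapped. Its genotype difference under differentiation was just outside the threshold (0.26 ± 0.10 on the log2 scale, edgeR adjusted p = 0.0535), and it passed when any 1 of 5 libraries was left out, null proliferating replicate 1, intact proliferating replicates 1 and 4, null differentiating replicate 2 and intact differentiating replicate 1 (edgeR adjusted p = 0.00764 to 0.0485). It also passed without the pair of intact libraries numbered 1 and without the 3 libraries that stood apart (edgeR adjusted p = 0.00459 and 0.00443). Scd2, the desaturase most abundant in brain, had group means of 936 to 1155 CPM per kilobase, the highest level of the 32 genes in every group but the null differentiating cells, where Apoe was higher. It passed none of the 5 tests, with genotype differences of 0.19 ± 0.11 (95% interval -0.05 to 0.42) and 0.09 ± 0.11 (-0.14 to 0.33). Its difference between differentiating and proliferating intact cells, 0.21 ± 0.11 (edgeR adjusted p = 0.0895), passed as a rise with library size scaling, a minimum count of 50, without the pair of intact libraries numbered 1, without the 3 libraries that stood apart and without intact differentiating replicate 3 (edgeR adjusted p = 0.0347, 0.0167, 0.0320, 0.0228 and 0.0498), and with DESeq2 (adjusted p = 0.0139). Scd1 and Scd2 are close in sequence and their reads may be divided between them by the counting.

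Most cholesterol enzymes were lower after differentiation in both genotypes. In intact cells 12 of the 18 fell and none rose (median log2 fold change -0.34, differentiating against proliferating), and in null cells 17 fell and none rose (median -0.86). Hmgcs1 was the exception in null cells (-0.21 ± 0.12 on the log2 scale, edgeR adjusted p = 0.147). Over the 32 genes, 17 fell and 2 rose in intact cells, where 35.3% of all genes fell and 36.7% rose, and 24 fell and 3 rose in null cells, where 34.4% fell and 34.6% rose. These comparisons share their libraries with the genotype comparisons. Without the pair of intact libraries numbered 1, Lss and Fasn passed as falls in intact cells too (edgeR adjusted p = 0.0461 and 0.0257). Both also passed without the 3 libraries that stood apart (edgeR adjusted p = 0.0275 and 0.0234). Among the larger falls were those of Ebp (-1.14 ± 0.12 in intact and -1.86 ± 0.12 in null cells), Dhcr7 (-0.98 ± 0.08 and -1.49 ± 0.08), Fdps (-0.77 ± 0.12 and -1.44 ± 0.12) and Stard4 (-1.22 ± 0.14 and -1.11 ± 0.14), all with an edgeR adjusted p of 3.2e-05 or less. Apoe and Abca1 rose in both genotypes, Apoe by 3.64 ± 0.72 in intact and 4.55 ± 0.75 in null cells (edgeR adjusted p = 3.5e-04 and 7.0e-05) and Abca1 by 3.00 ± 0.79 and 3.05 ± 0.78 (edgeR adjusted p = 0.00316 and 0.00278). Acaca was the third that rose in null cells (0.36 ± 0.10 on the log2 scale, edgeR adjusted p = 0.00617).

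Whether the responses of the genotypes differ was tested as the null response minus the intact response. For 12 of the 32 genes the difference passed, all with the null response lower, against 9.93% of all genes lower and 12.7% higher. They were 11 cholesterol enzymes and Insig1. All 18 enzymes had a value below 0 (median -0.47), and the steps after lanosterol held 7 of the 11. Hsd17b7 (-0.91 ± 0.11 on the log2 scale, edgeR adjusted p = 1.3e-04), Sc5d (-0.91 ± 0.16 on the log2 scale, edgeR adjusted p = 0.00107) and Cyp51 (-0.80 ± 0.16 on the log2 scale, edgeR adjusted p = 0.00273) had the lowest values. Tm7sf2 (-0.74 ± 0.16), Ebp (-0.72 ± 0.17), Dhcr7 (-0.51 ± 0.11) and Nsdhl (-0.47 ± 0.16) were the others after lanosterol, Sqle (-0.50 ± 0.12) and Fdft1 (-0.40 ± 0.13) came from the squalene segment and Fdps (-0.67 ± 0.17) and Pmvk (-0.47 ± 0.14) from the mevalonate steps. The value of Insig1 was -0.59 ± 0.15 (edgeR adjusted p = 0.0103).

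The calls of Fdft1 and Nsdhl were each lost when any 1 of 11 libraries was left out (edgeR adjusted p = 0.0605 to 0.0858 and 0.0509 to 0.0854), all but null proliferating 4, null differentiating 3 and 4 and intact differentiating 1 and 3 for Fdft1, and all but null proliferating 4, intact proliferating 2, null differentiating 3 and 4 and intact differentiating 3 for Nsdhl. That of Pmvk was lost without intact proliferating replicate 4 or null differentiating replicate 2 (edgeR adjusted p = 0.0502 and 0.0505). Calls were gained as well. Mvk passed as lower without null proliferating replicate 4, without the pair of intact libraries numbered 1 and without the 3 libraries that stood apart (edgeR adjusted p = 0.00781, 0.0455 and 0.00198). Mvd, Lss, Elovl6 and Acly each passed as lower under at least 1 alternative. Apoe and Abca1 gave 0.90 ± 0.92 and 0.06 ± 1.07 (edgeR adjusted p = 0.512 and 0.977). Without the 3 libraries that stood apart, Apoe gave 0.69 and passed (edgeR adjusted p = 0.0114), with the higher response in null cells, and Abca1 gave -1.95 (edgeR adjusted p = 7.7e-04). Without intact proliferating replicate 1 the value for Abca1 turned to -2.26 (edgeR adjusted p = 0.00187).

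**Figure D5:**
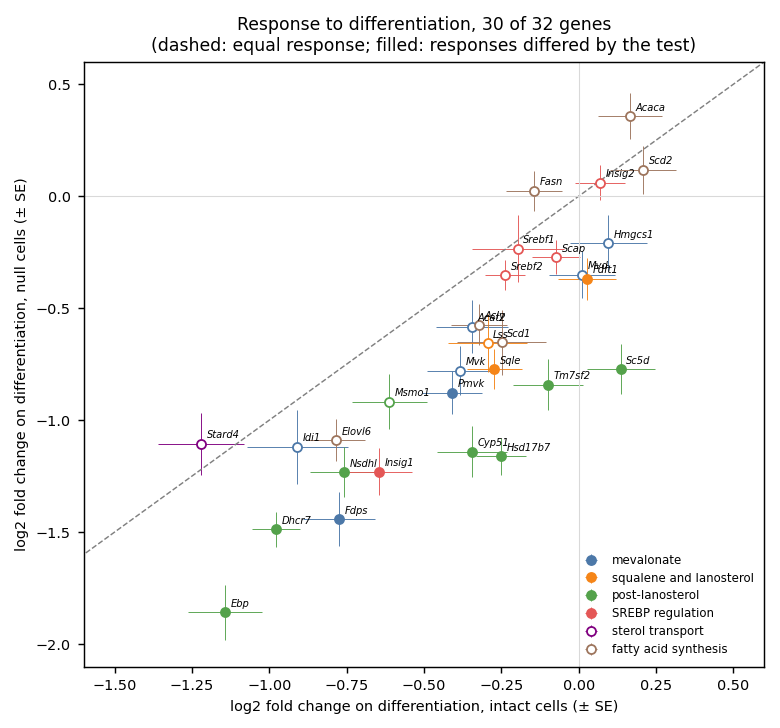
Log2 fold change on differentiation in intact (x axis) and null cells (y axis), each ± SE, for 30 genes; Apoe and Abca1, which rose in both by 3.00 to 4.55, are outside the range. The dashed line marks equal responses, and filled points, whose responses differed by the test, all lie below it.

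Genes next to these pathways were read in the same fits, from 6 lists with 78 tested genes. Of 14 genes of fatty acid oxidation, 7 were higher and 1 lower in null proliferating cells (median log2 fold change 0.43; 19.0% of all genes higher and 19.7% lower) and 10 were higher and 1 lower in null differentiating cells (median 0.72; 24.3% and 22.0% of all genes). Acadl, a dehydrogenase of long-chain acyl-CoA, was at 108 ± 28.5 CPM in intact and 306 ± 54.6 CPM in null differentiating cells (SD, n = 4; log2 fold change 1.50 ± 0.16, edgeR adjusted p = 5.1e-06). Cpt1a, which brings fatty acids to the mitochondrion, was at 83.3 ± 18.2 and 198 ± 34.8 CPM (1.25 ± 0.18, edgeR adjusted p = 5.6e-05), and Acaa2, the thiolase of the last step, had a log2 fold change of 1.06 ± 0.15. In proliferating cells the trifunctional protein genes Hadhb and Hadha and the dehydrogenase gene Hadh were higher (1.04 ± 0.17, 0.69 ± 0.13 and 0.65 ± 0.11).

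Of 17 genes for lipoproteins and sterol transport, 5 were higher and 3 lower in null proliferating cells and 7 higher and 4 lower in null differentiating cells (medians 0.14 and 0.22), against 19.0% and 19.7% of all genes when proliferating and 24.3% and 22.0% when differentiating. Pltp, the phospholipid transfer protein, was at 5.25 ± 1.10 CPM in intact and 14.3 ± 1.08 CPM in null proliferating cells, and at 5.34 ± 0.954 and 49.7 ± 7.82 CPM when differentiating (1.45 ± 0.17 and 3.22 ± 0.17, edgeR adjusted p = 1.2e-05 and 1.4e-08). The lipoprotein receptor gene Vldlr was 99.9% higher in null proliferating cells and lower in null differentiating cells (-0.78 ± 0.13), and Scarb1, another lipoprotein receptor gene, was lower in the latter (-0.74 ± 0.13; edgeR adjusted p = 4.3e-05, 2.3e-04 and 2.2e-04). Gramd1b, which moves cholesterol from the plasma membrane, was higher in null proliferating cells (1.40 ± 0.29).

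The 19 genes that supply, lengthen and desaturate fatty acids gave 7 higher and 5 lower at both stages (medians 0.21 and -0.18), where all genes gave 19.0% and 19.7% when proliferating and 24.3% and 22.0% when differentiating. Me1, malic enzyme and a source of NADPH, was at 67.5 ± 8.78 CPM in intact and 210.2 ± 22.4 CPM in null proliferating cells (1.64 ± 0.15, edgeR adjusted p = 1.9e-06). Hacd2, a dehydratase of fatty acid elongation, was higher at both stages (1.08 ± 0.12 and 1.55 ± 0.12), and Aacs, which turns acetoacetate to its CoA ester, was lower in proliferating cells (-0.71 ± 0.09). Thrsp and Mid1ip1, related proteins that promote lipogenesis, were higher in null differentiating cells (2.65 ± 0.35 and 0.95 ± 0.06, edgeR adjusted p = 2.4e-05 and 2.5e-08).

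Of 11 genes of the SREBP and LXR machinery, 4 were higher and 3 lower in null proliferating cells and 5 higher and 3 lower in null differentiating cells (medians -0.03 and 0.23). Over all genes the shares were 19.0% and 19.7% when proliferating and 24.3% and 22.0% when differentiating, for this and the next lists. Rnf139 and the SREBP protease gene Mbtps1 were higher in proliferating cells (0.24 ± 0.05 and 0.28 ± 0.06), and Rnf145 and the LXR gene Nr1h2 in differentiating cells (0.66 ± 0.08 and 0.45 ± 0.09). Of 9 tested genes for sterol modification and storage, 3 were higher and none lower when proliferating, and 2 were higher and 2 lower when differentiating (medians 0.04 and -0.02), of which the differentiating counts are near the shares over all genes. Soat1, which esterifies cholesterol for storage, was at 66.8 ± 14.6 CPM in intact and 134 ± 16.4 CPM in null differentiating cells and higher at both stages (0.60 ± 0.16 on the log2 scale and, when differentiating, by 99.9%, edgeR adjusted p = 0.00676 and 1.0e-04). Cyb5r3, a reductase that supplies electrons to sterol enzymes, was higher at both stages as well (0.45 ± 0.11 and 0.43 ± 0.11), though the second call was lost when the differentiating libraries were fitted alone (0.38, edgeR adjusted p = 0.0589). Cyp46a1, the cholesterol hydroxylase of neurons, was higher in null proliferating cells (1.17 ± 0.20), and Erg28, a scaffold of sterol demethylation, was lower in null differentiating cells (-0.40 ± 0.09). In the isoprenoid branch, 8 genes that take farnesyl diphosphate away from sterols, 2 were higher and 2 lower when proliferating and 2 higher and 3 lower when differentiating (medians 0.02 and -0.16), near those shares except for the 3 lower. Fnta, a prenyltransferase subunit, was lower in null differentiating cells (-0.63 ± 0.11, edgeR adjusted p = 2.1e-04), and Nus1 and Dhdds, subunits of the dolichol-making enzyme, moved in opposite directions there (-0.42 ± 0.08 and 0.25 ± 0.05) and in proliferating cells (0.31 ± 0.08 and -0.21 ± 0.05). The call of Dhdds in differentiating cells was lost with library size scaling (0.16, edgeR adjusted p = 0.0560). Pggt1b, another prenyltransferase subunit, was higher in null proliferating cells (0.39 ± 0.08).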

How the data were processed

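RNA was measured by polyA RNA sequencing in 16 libraries, 4 for each of the 4 groups. The authors deposited raw counts of reads for every gene in a file of its own for each library, together with model lengths per the file headers. Per the submitters' processing notes, bcl2fastq, featureCounts and the mm10 build were used. The aligner, annotation, versions and strand setting were not given in the sources used here. Of the 27179 Entrez identifiers, 25275 matched a symbol in a RefSeq gene table (GRCm38, which is mm10), the source of all positions.

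Counts of all genes were fitted with edgeR 4.0.16 in R 4.3.3. A filter (filterByExpr, minimum count 10) left 15177 genes, and libraries were scaled by the trimmed mean of M values (TMM). The quasi-likelihood fit took in all 16 libraries and had 4 group means, no covariate, 12 residual degrees of freedom and a common biological coefficient of variation of 0.200. The 5 comparisons were null against intact at each stage, differentiating against proliferating in each genotype, and the difference of these responses (interaction). Benjamini-Hochberg adjusted p under 0.05 over all genes tested was called. The SE is the size of the unshrunk log2 fold change divided by the root of its F statistic, and 95% intervals use it with those residual degrees of freedom. CPM (counts per M counts) are TMM-scaled. Levels per kilobase divide CPM by the deposited model length and alone are compared between genes.

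Counts were simulated for the comparison of null with intact differentiating cells over 15177 genes. The fit called 12% of genes changed by 1.25-fold, 52% at 1.5-fold, 80% at 2-fold and 96% at 4-fold (50 genes at each fold), with 8 false calls. The changed genes were drawn at random above a low level, and all others were left unchanged. In the data 24.3% of genes were called higher and 22.0% lower, so these recovery rates need not hold for the members. Alternatives were DESeq2 1.42.0, library size scaling, other filters, replicate blocks, fits of 2 groups and libraries left out. The members and lists were chosen with earlier results of these data known. Library values are given, in each step, for up to 4 members with the smallest adjusted p over the 5 comparisons and for members that moved against their step, and up to 3 called genes with the smallest adjusted p are named from each other list, except 1 that is not reported here. Of 81 genes on those lists 80 matched and 78 were tested, and all 63 markers matched. A combined table of the series was not used.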

Additional observations from a re-analysis of the deposited data

Results flagged for a closer look

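In 14 of the 128 combinations of a gene and a group (10.9%), 1 library lay far from the other 3 of its group. Chance flags about 1 in 20. Intact proliferating replicate 1 gave 5 of them. It was high for Abca1 (115 CPM against 6.17 to 7.74 in the others), Apoe (225 CPM against 27.8 to 41.2) and Scd2 (5638 CPM) and low for Acly (552 CPM) and Elovl6 (227 CPM). Null proliferating replicate 4 gave 3, with Apoe high at 572 CPM against 92.7 to 107, and Lss at 136 CPM and Scd2 at 5432 CPM. Null differentiating replicate 2 was low for Sqle (273 CPM), Lss (89.3 CPM) and Fasn (908 CPM). The others were Ebp in intact differentiating replicate 4 (12.3 CPM), Abca1 in intact differentiating replicate 3 (372 CPM) and Insig2 in intact proliferating replicate 2 (26.0 CPM). The cause was not tested.

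Responses to differentiation differed between the genotypes for 12 genes by edgeR's interaction test, always with the lower value in null cells. The null response minus the intact response, as a log2 fold change, was -0.47 for Pmvk, -0.67 for Fdps, -0.40 for Fdft1, -0.50 for Sqle, -0.80 for Cyp51, -0.74 for Tm7sf2, -0.47 for Nsdhl, -0.91 for Hsd17b7, -0.72 for Ebp, -0.91 for Sc5d, -0.51 for Dhcr7 and -0.59 for Insig1.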

How the results depend on the processing

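Of 160 values (32 genes in 5 comparisons), 126 kept their call under every one of up to 25 alternatives per comparison, and 34 changed it under at least 1. The cause of the changes was not tested, except that alternatives with fewer libraries estimate the spread from fewer samples. In proliferating cells the 2 members and 1 cholesterol enzyme lower in null cells became 4 and 3 with library size scaling, 5 and 4 without the pair of intact libraries numbered 1, and 4 and 3 without these and null proliferating replicate 4, a setting chosen after seeing the data. Leaving out 1 library at a time gave 1 to 5 members and 0 to 4 enzymes. Calls over all genes moved as well. Those lower in null proliferating cells, 2985 in the main fit, ranged from 2605 to 3491 without 1 library. They ranged from 2676 to 3847 in the other settings. The 2 members that rose on differentiation in intact cells became 4 with library size scaling and 4 with a minimum count of 50 (2 to 4 without 1 library, with 0 to 1 enzymes). The 5 members higher in null differentiating cells became 3 with DESeq2, which gave no adjusted p for Apoe (4 to 6 without 1 library), while enzymes lower there were 16 to 18 without 1 library and 17 otherwise. Over all genes, leaving out 1 library gave 3218 to 4026 higher and 3025 to 3716 lower in null differentiating cells. It gave 5279 to 5824 that rose on differentiation in intact cells. For the interaction, members lower ranged from 9 to 15 and enzymes from 8 to 13 without 1 library. Over all genes 1210 to 1857 were then lower for the interaction, in place of 1507. Without the 3 libraries, 1 member, Apoe, was higher there (0 otherwise), with 3051 genes higher and 2340 lower over all genes. The interaction of Abca1 reversed from 0.06 to -2.32 without the pair, to -1.95 without the 3 libraries and, with 1 library left out, ranged from -2.26 (without intact proliferating replicate 1) to 0.42. Same-numbered libraries of the 2 stages had residual correlations of -0.0284 to 0.0331 in null and -0.231 to 0.126 in intact cells. Of these 8, 1 correlated best with its own number. With 4 libraries a group, this cannot decide whether equal numbers share a foetus. Numbers were not taken as pairs because no source used here gives the pairing. With a replicate block by number the Abca1 difference in proliferating cells passed (2.66, edgeR adjusted p = 0.0284) and the interactions of Fdft1 and Nsdhl did not (edgeR adjusted p = 0.0782 and 0.0647); with a replicate block by isolate, an assumption, that of Pmvk was lost too (edgeR adjusted p = 0.0726). What depth limits was not tested; no member was at 0 in every library of a group.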
